A study of Mus musculus with 6 samples.

Results

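A set of S100 genes of mouse chromosome 3 is described here: S100a1, S100a3, S100a4, S100a6, S100a7a, S100a10, S100a11, S100a13 and S100a16. These 9 of 19936 measured genes were picked because they belong to the S100a cluster inside a chromosome 3 stretch whose genes were jointly lower in HA-Fbxl10 cells. The difference between HA-Fbxl10 and control cells was therefore used to choose them, and for the 9 members it is given as a description without a test. The RefSeq table places all 9 on chromosome 3, as the name of the set says, together with 5 further measured S100 genes that are not members.

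RNA was measured on Affymetrix arrays in a stable line derived from mouse embryonic fibroblasts (MEFs) that carries a Tet-off transactivator, a tetracycline-controlled activator shared by both groups. HA-Fbxl10 cells (3 samples) are clones of this line, chosen for expression of an HA-tagged Fbxl10 cDNA that was introduced together with a plasmid for hygromycin resistance. Control cells (3 samples) are the same line without transfection. How many clones were used is not stated. No empty-vector cells were sampled, so transfection, clone selection and Fbxl10 itself cannot be told apart here. The labels speak of independent RNA samples without naming separate cultures, and every error and p-value below therefore covers the scatter of these 3 samples a group, which could be technical only. Fbxl10, now named Kdm2b, is a histone demethylase whose CXXC domain binds unmethylated CpG.

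The label check came first. Kdm2b had log2 values of 9.77, 9.75 and 9.58 in HA-Fbxl10 cells, against 7.38, 7.45 and 7.28 in control cells, and was 5.03-fold higher (limma adjusted p = 3.31e-07). Of the 19936 genes, 2111 fell and 2097 rose at a limma adjusted p under 0.05, which together is 21.1% of genes. Subtracting array medians gave 1560 lower and 2650 higher. Of 10 fibroblast markers 8 lay above the median level of all genes, with a summed log2 level of 14.5 to 14.6 in HA-Fbxl10 and 14.6 to 14.7 in control arrays, although Col3a1 (-0.79) and Pdgfra (-0.30) fell. None of the 8 neutrophil, 8 keratinocyte, 5 endothelial or 4 glial markers lay above that median, and of these only the endothelial Kdr (0.51) passed the test. Of 9 macrophage markers 2 lay above the median level and 1 (Cd14, -0.45) passed the test, being lower. Their summed log2 level was 7.40 to 7.54 in HA-Fbxl10 and 7.52 to 7.62 in control arrays. The summed cartilage markers reached 9.58 to 9.64 in HA-Fbxl10 and 7.94 to 8.36 in control arrays, with Col2a1 higher by 2.21 and Sox9 lower by 0.37. Of the 6 skeletal muscle markers none passed the test. The part of these cell type markers in the S100 values was not tested. In bulk RNA, fewer cells with a transcript and less of it per cell cannot be told apart.

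S100 proteins are small dimeric calcium sensors with EF-hand loops, which expose a binding surface when calcium rises and then dock onto targets such as annexins, myosin and membrane channels. Most of their genes sit side by side in one cluster, which in mammals shares its chromosome region with the epidermal differentiation complex, a group of genes for the cornified envelope of the skin. In fibroblasts the best known members are S100a4, also called Fsp1 or metastasin, which binds non-muscle myosin, S100a6 or calcyclin, and the annexin partners S100a10 and S100a11.

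The members differ in the sequence at their starts, and 6 windows are shown because they cover the largest differences and the smallest. RefSeq windows of 300 bases (250 before the start and 50 after it, build GRCm38.p6) exist for 8 of the 9 members, S100a10 having no entry in the table used. Capitals mark CG dinucleotides. S100a13 (chr3:90514185-90514484, plus strand) and S100a1 (chr3:90514281-90514580, minus strand) are transcribed away from each other and their windows share 204 bases. The other windows are S100a16 (the upstream of its starts, chr3:90537004-90537303), S100a4 (chr3:90603520-90603819), S100a6 (chr3:90612644-90612943) and S100a11 (chr3:93520246-93520545), all on the plus strand.
S100a13: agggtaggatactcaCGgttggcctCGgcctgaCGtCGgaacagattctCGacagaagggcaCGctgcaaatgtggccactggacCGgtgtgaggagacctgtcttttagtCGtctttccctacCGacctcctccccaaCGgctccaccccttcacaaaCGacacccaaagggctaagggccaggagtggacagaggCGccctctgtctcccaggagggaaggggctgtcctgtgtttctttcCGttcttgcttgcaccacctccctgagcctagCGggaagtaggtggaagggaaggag
S100a1: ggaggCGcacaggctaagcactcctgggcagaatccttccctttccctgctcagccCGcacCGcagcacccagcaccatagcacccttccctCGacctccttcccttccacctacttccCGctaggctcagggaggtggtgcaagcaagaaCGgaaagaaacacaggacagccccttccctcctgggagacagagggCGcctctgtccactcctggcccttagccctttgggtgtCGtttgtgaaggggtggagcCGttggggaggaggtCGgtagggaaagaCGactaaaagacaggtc
S100a16: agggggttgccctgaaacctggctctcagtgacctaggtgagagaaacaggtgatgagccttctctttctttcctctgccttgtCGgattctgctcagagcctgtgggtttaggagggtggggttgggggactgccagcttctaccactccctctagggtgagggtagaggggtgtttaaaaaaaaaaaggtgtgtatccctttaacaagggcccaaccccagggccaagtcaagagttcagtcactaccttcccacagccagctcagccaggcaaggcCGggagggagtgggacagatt
S100a4: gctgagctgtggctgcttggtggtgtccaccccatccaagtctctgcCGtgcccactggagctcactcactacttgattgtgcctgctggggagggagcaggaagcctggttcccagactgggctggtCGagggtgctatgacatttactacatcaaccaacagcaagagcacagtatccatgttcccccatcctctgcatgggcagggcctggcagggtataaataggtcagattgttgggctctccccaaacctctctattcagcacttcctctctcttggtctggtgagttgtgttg
S100a6: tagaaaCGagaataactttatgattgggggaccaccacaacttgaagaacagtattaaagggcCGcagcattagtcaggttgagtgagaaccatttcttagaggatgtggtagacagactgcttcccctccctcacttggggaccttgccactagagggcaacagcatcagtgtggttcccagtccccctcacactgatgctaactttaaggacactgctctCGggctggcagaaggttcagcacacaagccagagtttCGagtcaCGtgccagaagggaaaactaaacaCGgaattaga
S100a11: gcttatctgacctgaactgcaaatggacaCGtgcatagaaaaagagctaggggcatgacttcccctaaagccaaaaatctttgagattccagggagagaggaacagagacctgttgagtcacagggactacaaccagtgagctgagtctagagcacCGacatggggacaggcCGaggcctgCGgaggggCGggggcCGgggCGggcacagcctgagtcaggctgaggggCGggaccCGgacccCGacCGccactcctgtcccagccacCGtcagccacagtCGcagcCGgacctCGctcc

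The windows held few to moderate numbers of CG. The S100a11 window had 15 CG, that of S100a13 had 14 and that of S100a1 had 11, against a median of 7 over 32841 RefSeq windows with an interquartile range of 3 to 20. The S100a6 window had 6 CG, and S100a4 and S100a7a had 2 each. S100a16 had 2 and 4 in its pair of windows, and the 4 windows of S100a3 had 0 to 5. All 12 member windows thus lay below the upper quartile of all windows. The letters TATAAA, on either strand, were in 2 of the 12 windows, those of S100a4 and 1 start of S100a3, against 13.6% of all windows. The AP-1 type motif TGANTCA, which reads the same on both strands apart from its middle base, was in the S100a11 window and in the downstream S100a16 window, against 7.81% of all windows. GGGCGG, the core of the GC box, on either strand, was in 3 windows (S100a11, S100a16 downstream and 1 of S100a3), against 35.7% of all windows. These matches describe letters and are not evidence of binding.

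All 9 members had a lower mean in HA-Fbxl10 than in control cells, and for 8 of them all 3 HA-Fbxl10 arrays lay below all 3 control arrays. Over all genes the same separation downwards was seen for 18.1%, and over the 471 chromosome 3 genes above the median level for 59.4%. The members were chosen on this contrast and nothing is read from their count. By the limma fit 6 of the 9 lay past the threshold on the lower side, where 10.6% of all genes did. Their choice on this contrast makes such calls likely, so this count is no test of the members either. The median log2 difference, HA-Fbxl10 minus control, was -0.43 over the members. Over all genes it was -0.00427, and over the 471 genes of chromosome 3 above the median level (called expressed here) it was -0.23.

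**Figure D1:**
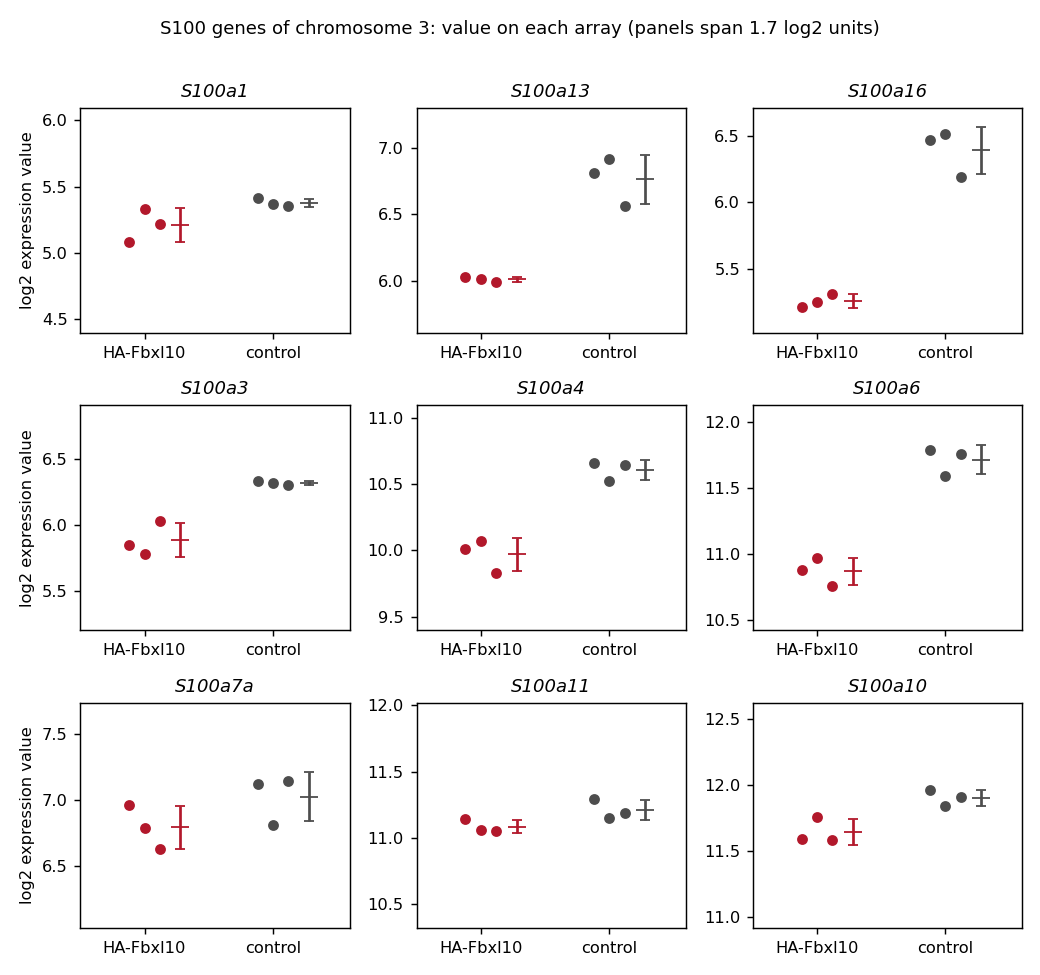
Log2 expression value of each member on each array, with HA-Fbxl10 arrays in red at left and control arrays in grey at right, and the mean with its SD beside the points (n = 3 each). All panels have the same span on the log2 axis. The groups are farthest apart for S100a16 and overlap only for S100a7a.

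S100a4 and S100a6, the fibroblast-associated pair, were both clearly lower. S100a4 had log2 values of 10.01, 10.07 and 9.83 in HA-Fbxl10 cells, against 10.66, 10.52 and 10.64 in control cells. The groups were separated by 0.45, the gap from the highest HA-Fbxl10 to the lowest control array, and the log2 difference was -0.64 ± 0.08 (SE), a transcript level 35.7% lower. S100a6, whose product calcyclin binds the adaptor CacyBP, had values of 10.88, 10.97 and 10.76 in HA-Fbxl10 cells, against 11.79, 11.59 and 11.76 in control cells. Its groups were 0.62 apart and its log2 difference was -0.84 ± 0.08 (SE), a level 44.3% lower. Both genes ranked the arrays alike within each group, with HA-Fbxl10 replicate 3 and control replicate 2 lowest. This was the most alike of the 36 pairs of members, and such likeness was not general. The correlation of deviations from the group means over the 6 arrays, which all pairs share, was 0.96 for this pair, but its median over the 36 pairs was 0.02, its lowest value was -0.86, and 18 pairs were above 0.

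S100a16 and S100a13 were lower too. S100a16, a broadly expressed member, had log2 values of 5.21, 5.25 and 5.31 in HA-Fbxl10 cells, against 6.47, 6.52 and 6.19 in control cells. This was the largest difference of the set, -1.14 ± 0.09 (SE), or 2.20-fold lower, and its HA-Fbxl10 mean of 5.25 lay just under the median level of all genes (5.36), where RMA compresses differences. S100a13, which takes part in the non-classical export of FGF1 and interleukin 1 alpha, had values of 6.03, 6.01 and 5.99 in HA-Fbxl10 cells, against 6.81, 6.92 and 6.56 in control cells. Its log2 difference was -0.75 ± 0.09 (SE), or 1.69-fold lower. For both genes the HA-Fbxl10 arrays lay close together, with SDs of 0.05 for S100a16 and 0.02 for S100a13. The control arrays had an SD of 0.18 for each, with control replicate 3 the lowest.

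S100a3, known for its high level in the hair cuticle, lay between the larger and smaller differences. It had values of 5.85, 5.78 and 6.03 in HA-Fbxl10 cells, against 6.33, 6.32 and 6.30 in control cells, a log2 difference of -0.43 ± 0.08 (SE). The groups did not overlap, and the control arrays agreed within 0.02 (SD).

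The annexin partners S100a10 and S100a11 had small differences. S100a10, which has lost calcium binding and joins annexin A2 in a complex that binds plasminogen, had values of 11.59, 11.76 and 11.58 in HA-Fbxl10 cells, against 11.96, 11.84 and 11.91 in control cells. The groups did not overlap, and the log2 difference was -0.26 ± 0.07 (SE). S100a11, a partner of annexin A1, had values of 11.14, 11.06 and 11.05 in HA-Fbxl10 cells, against 11.29, 11.15 and 11.19 in control cells. The groups were separated by only 0.0017, and the log2 difference of -0.13 ± 0.07 (SE) had a 95% interval from -0.28 to 0.03. S100a11 alone among the members has a second probe set with a single gene name, which gave -0.14 from means of 10.68 in HA-Fbxl10 and 10.83 in control cells. Whether either reads a near-identical copy of the gene was not tested.

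The remaining members, S100a1 and S100a7a, also differed little. S100a1, best known as a regulator of calcium cycling in muscle, had values of 5.08, 5.33 and 5.22 in HA-Fbxl10 cells, against 5.41, 5.37 and 5.35 in control cells. The log2 difference was -0.17 ± 0.08 (SE), with a 95% interval from -0.34 to 0.0024, and it was -0.10 without HA-Fbxl10 replicate 1. S100a7a, the mouse relative of the human skin protein psoriasin, had values of 6.96, 6.79 and 6.63 in HA-Fbxl10 cells, against 7.12, 6.81 and 7.14 in control cells. It was the 1 member whose groups overlapped, with 8 of the 9 possible array pairs lower in HA-Fbxl10 cells and a log2 difference of -0.23 ± 0.11 (SE). That value was -0.15 without HA-Fbxl10 replicate 3, and the value of S100a11 was -0.08 without control replicate 1.

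The shifts were alike in sign and unlike in size. They ran from -1.14 to -0.13, a range of 1.01 log2 units, and their SD over members was 0.35, which is 4.38 times the median standard error of a single shift (0.08). Along the chromosome the 5 members S100a13, S100a16, S100a3, S100a4 and S100a6 had shifts of -1.14 to -0.43 with a median of -0.75. The other 4, S100a1 before them and S100a7a, S100a11 and S100a10 after them, had shifts of -0.26 to -0.13 with a median of -0.20, a grouping made after the values were seen. S100a1 and S100a13, whose start windows overlap, had shifts of -0.17 and -0.75. Beside the CG counts of the windows printed above, S100a11 (15 CG) had a shift of -0.13, S100a13 (14) -0.75, S100a1 (11) -0.17, S100a6 (6) -0.84, S100a4 (2) -0.64 and S100a16 (2 in the window shown) -1.14. Of the members whose windows are not printed, S100a7a (2 CG) had a shift of -0.23 and S100a3 (0 to 5 CG) one of -0.43. Fewer CG thus did not go with larger differences throughout. S100a7a had few CG and a small difference, and S100a13 had many and a large one. With so few genes, chosen on this contrast, this is a description only.

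**Figure D2:**
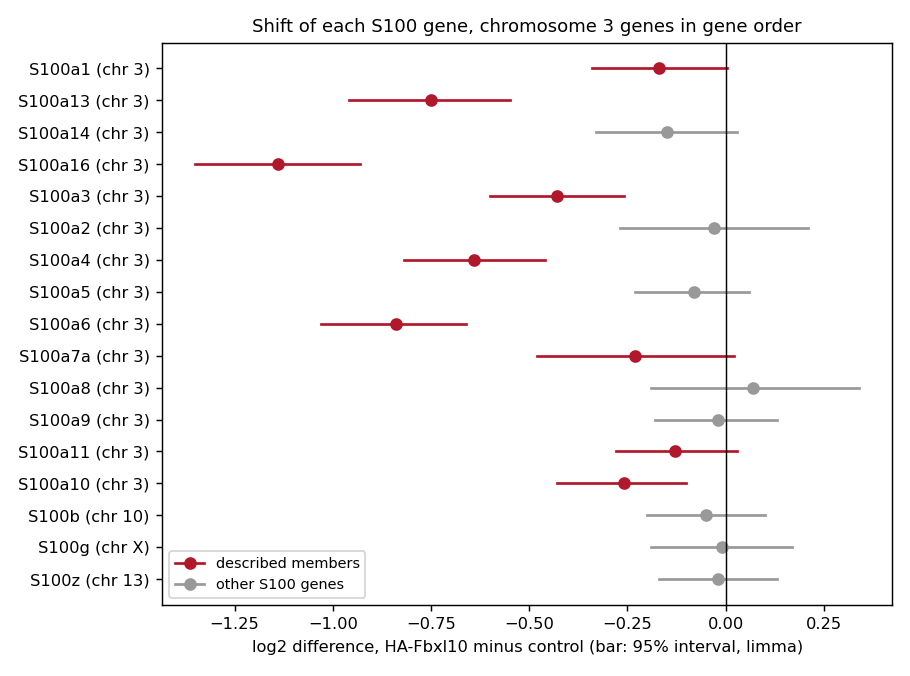
Log2 difference, HA-Fbxl10 minus control, for each S100 gene (points) with 95% limma intervals (bars, n = 3 arrays each), members in red and other S100 genes in grey, chromosome 3 genes in gene order from the top. Members from S100a13 to S100a6 lie at -0.43 or lower, and the interleaved grey genes of chromosome 3 lie between -0.15 and 0.07.

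The remaining 5 measured S100 genes of chromosome 3 lie among the members but were dim. S100a2, S100a5, S100a8, S100a9 and S100a14 had mean log2 levels of 3.50, 4.08, 3.44, 4.37 and 3.89 over all arrays, all below the median of all genes (5.36), and those of S100a2 and S100a8 were also below the lower quartile (3.75). Their shifts were -0.03, -0.08, 0.07, -0.02 and -0.15, in the same order, and none of the 5 passed the limma threshold (adjusted p of 0.238 to 0.893). S100a8 and S100a9 encode the calprotectin subunits of neutrophils and macrophages. S100a14, which lies directly between S100a13 and S100a16, had values of 3.78, 3.72 and 3.95 in HA-Fbxl10 cells, against 3.93, 3.91 and 4.07 in control cells, and the groups overlapped. So low a level may be background alone, and a difference was then not detectable and is not shown to be absent. The S100 genes of other chromosomes were equally dim. S100b of chromosome 10, a marker of glia, had a shift of -0.05, the intestinal calcium carrier gene S100g of chromosome X had -0.01 and S100z of chromosome 13 had -0.02, with limma adjusted p of 0.668 to 0.959. S100pbp of chromosome 4, which is not an S100 gene but encodes a nuclear binder of the human protein S100P, had values of 6.56, 6.78 and 6.56 in HA-Fbxl10 cells, against 7.21, 7.21 and 7.31 in control cells. It fell by 0.61 ± 0.08 (SE, limma adjusted p = 0.000585), lower in 9 of 9 array pairs.

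Neighbouring genes of the cluster were also lower. Within 25 measured genes of any member there were 31 expressed genes that are not S100 members, with a median log2 difference of -0.28. In 22 of them all HA-Fbxl10 arrays lay below all control arrays. That separation was seen for 59.4% of all expressed chromosome 3 genes, of which 80.0% had a lower mean. Low stretches were not particular to this place, and the chromosome was uneven. The running median of 31 expressed genes was -0.34 to -0.27 at the members. Elsewhere it was -0.37 at expressed gene 102 in chromosome order and 0.19 at expressed gene 378. The median of the members (-0.43) was 0.15 lower than that of these neighbours, a difference of -0.15 that was -0.07 without HA-Fbxl10 replicate 2, -0.23 without HA-Fbxl10 replicate 3 and -0.10 without control replicate 1. Before S100a1 the 16 expressed neighbours ran from -0.58 to -0.0026 in shift with a median of -0.39. They included Chtop, an mRNA export factor gene next to S100a1, at -0.50, Snapin, a SNARE-associated gene, at -0.47, and Ilf2, which encodes a subunit of an RNA-binding complex, at -0.12. After S100a10 the 13 expressed neighbours had a median of -0.22, beside -0.23 over all expressed chromosome 3 genes. The proteasome subunit genes Psmb4 (-0.57) and Psmd4 (-0.53) were lower there, whereas Tuft1 (0.52) was higher. These neighbours surround members taken from a stretch that was picked on this contrast, so no test is given. The genes named were chosen after their values were seen.

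**Figure D3:**
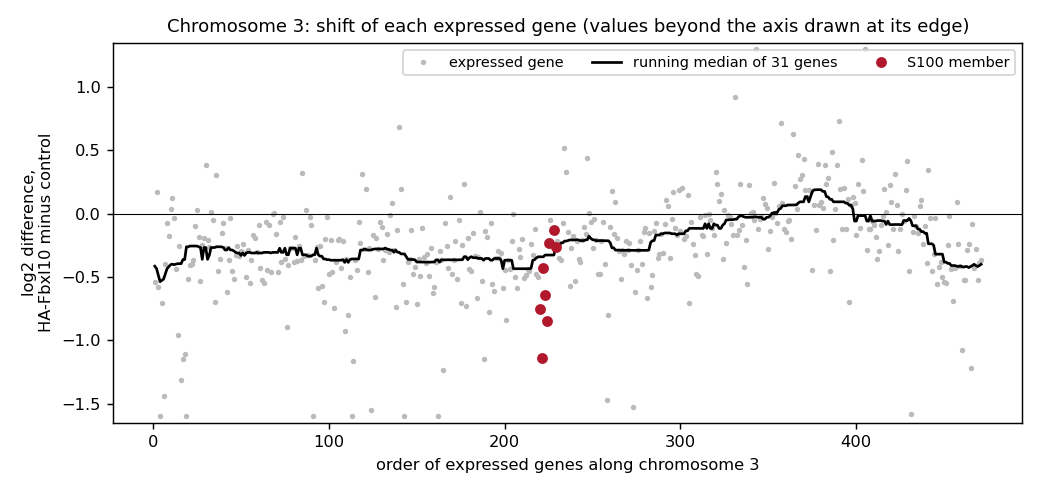
Log2 difference, HA-Fbxl10 minus control, of each of the 471 expressed genes of chromosome 3 (grey points) in gene order, with the running median of 31 genes (black line) and the 8 members above the median level (red), values beyond the axis being drawn at its edge. The members fan out from -1.14 to -0.13 at a place where the running median lies between -0.34 and -0.27.

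Between S100a1 and S100a10 lie 53 measured genes that are not members, of which 51 were not expressed. The 2 that were, Lce1j (-0.05) and Lce1k (-0.14), belong to the late cornified envelope genes. Their mean log2 levels of 5.95 and 5.68 lay not far above the median of all genes (5.36). Without detection calls, background signal cannot be told from expression there. The list of epidermal differentiation genes gave 18 measured members, 0 of which passed the limma threshold and 0 an unadjusted p under 0.05, with 0 above the median level and shifts from -0.16 to 0.12.

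After a running median of 31 expressed genes in chromosome order was removed from every array, the members no longer shared a sign. The 8 members above the median level lay in each other's windows, so their own values entered the median that was removed. How far that moved them was not tested. S100a16 was then at -0.78, S100a6 at -0.50, S100a13 at -0.40 and S100a4 at -0.30, with standard errors of 0.08 to 0.10. S100a3 was at -0.07, S100a10 at 0.07, S100a7a at 0.12 and S100a11 at 0.22. S100a1, at a mean of 5.29 just under the median level, was left unadjusted by this step. The median of the members was then -0.17, which is the unadjusted value of S100a1 itself. Their SD was 0.32, against 0.35 before. The step itself nearly fixes this, since it moved every adjusted member by a similar amount. For example, S100a3 went from -0.43 to -0.07 and S100a10 from -0.26 to 0.07.

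**Figure D4:**
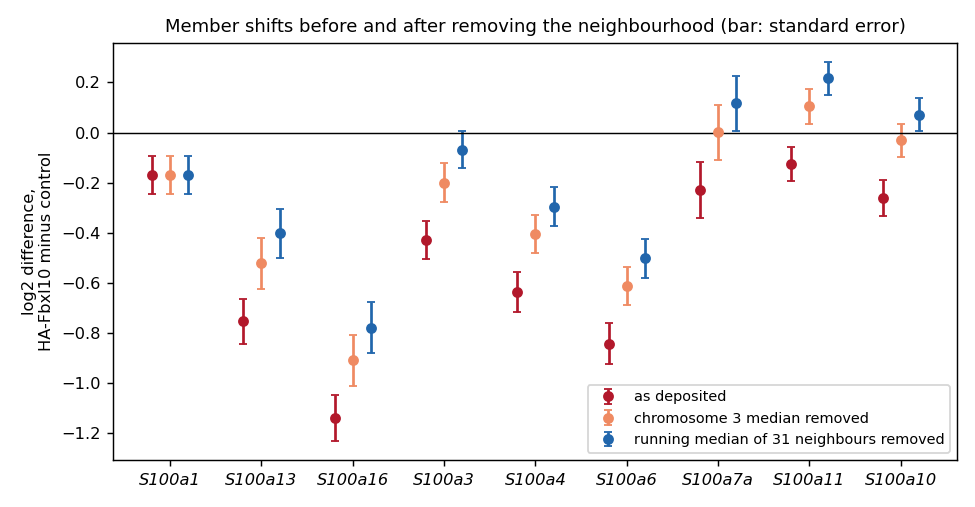
Log2 difference, HA-Fbxl10 minus control, of each member as deposited (red), with the median of expressed chromosome 3 genes removed (orange) and with a running median of 31 genes, members included, removed (blue), bars giving the limma standard error. S100a1, S100a13, S100a16, S100a3, S100a4 and S100a6 stay below 0 under all 3, S100a1 because neither correction was applied to it, and S100a3 reaches -0.07. S100a11 lies above 0 under both corrections, and S100a7a lies at 0 under the first and above it under the second.

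Genes that work with S100 proteins did not move in one direction. Among the 12 annexin genes, 2 fell and 1 rose at a limma adjusted p under 0.05, 9 stayed short of it, and their median shift was -0.03, beside 10.6% of all genes falling and 10.5% rising. Anxa8 had log2 values of 7.19, 7.28 and 7.24 in HA-Fbxl10 cells, against 8.19, 8.24 and 8.14 in control cells, and fell by 0.95 ± 0.06 (SE, limma adjusted p = 1.65e-05). Anxa3 rose by 0.52 ± 0.06 (SE, limma adjusted p = 0.000415), with 12.22, 12.22 and 12.18 in HA-Fbxl10 cells, against 11.74, 11.65 and 11.68 in control cells. Neither group pair overlapped. Anxa2, the partner of S100a10, fell by 0.23 ± 0.06 (SE, limma adjusted p = 0.0283), beside a shift of -0.26 for S100a10 itself. The values parted once the running median was removed, with Anxa2 at -0.41 and S100a10 at 0.07. The call of Anxa2 ended without HA-Fbxl10 replicate 2 or 3 or control replicate 1 or 2, leaving 1 annexin lower, and over these the adjusted p was 0.0775 to 0.101. Anxa1, the partner of S100a11, had a shift of -0.04 ± 0.06 (SE, limma adjusted p = 0.761).

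Among 25 measured binding partners and receptors, 4 fell and 4 rose by the same limma threshold and 17 stayed short of it, with a median shift of 0.05. Plat, the tissue plasminogen activator that binds S100A10, fell by 1.04 ± 0.07 (SE, limma adjusted p = 1.89e-05), with 7.46, 7.62 and 7.42 in HA-Fbxl10 cells, against 8.55, 8.50 and 8.57 in control cells. Hltf, a chromatin remodeller that the S100A10 and annexin A2 complex binds, fell by 0.53 ± 0.08 (SE, limma adjusted p = 0.00166). It also lies on chromosome 3, and its shift was -0.21 with an adjusted p of 0.128 once the running median was removed. Pla2g4a, the cytosolic phospholipase A2 that S100A10 inhibits, rose by 0.33 ± 0.07 (SE, limma adjusted p = 0.00702), and Septin2, a filament-forming GTPase gene, rose by 0.32 ± 0.06 (SE, limma adjusted p = 0.00612). The other calls, named after their values were seen, were Mdm2 and Capzb, both at -0.24, Sugt1 at 0.29 and Dlc1 at 0.23, and all 4 were lost with the replicate number as a block (adjusted p of 0.0602 to 0.114). The count of falls was 2 without any 1 array other than control replicate 2, and the count of rises was 2 without HA-Fbxl10 replicate 1 or 2 or control replicate 1 or 2. Dlc1 had a shift of -0.04 when its 2 probe sets were averaged.

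Among 38 other EF-hand genes, 4 fell (10.5%) and 5 rose (13.2%) by the limma threshold and 29 stayed short of it, with a median shift of 0.06. These shares lay near those of all genes (10.6% and 10.5%), and nothing is read from the counts. Nucb2, a Golgi and secreted calcium binder, rose by 0.66 ± 0.06 (SE, limma adjusted p = 0.000139), with 8.76, 8.87 and 8.75 in HA-Fbxl10 cells, against 8.11, 8.11 and 8.18 in control cells. The centrin genes went in opposite directions. Cetn2 fell by 0.45 ± 0.08 (SE, limma adjusted p = 0.0036) and Cetn3 rose by 0.41 ± 0.09 (SE, limma adjusted p = 0.0113). The value of Cetn3 was 0.16 with an adjusted p of 0.425 once the running median was removed. Myl9, a regulatory light chain of contractile myosin, fell by 0.43 ± 0.09 (SE, limma adjusted p = 0.00573).

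**Figure D5:**
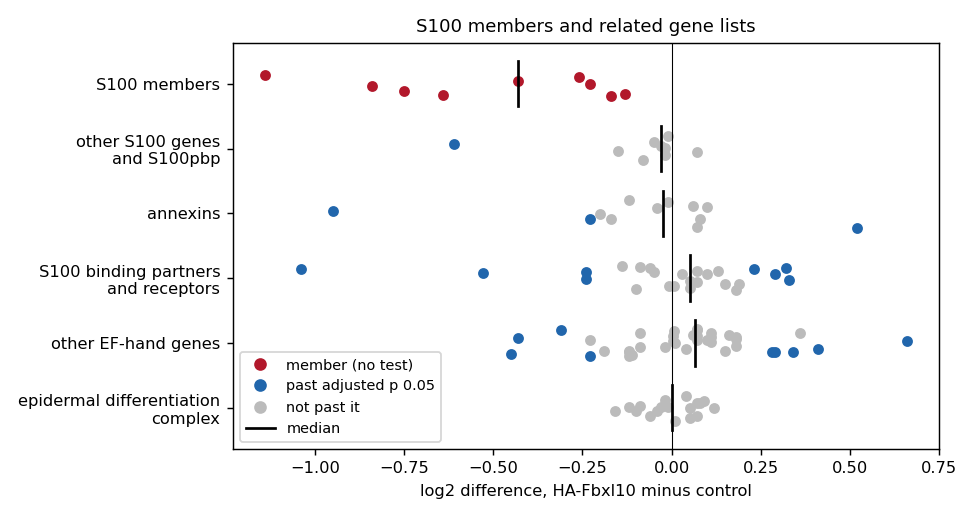
Log2 difference, HA-Fbxl10 minus control, of the 9 members (red, no test) and of the genes of 5 related lists, blue where the limma adjusted p was under 0.05 and grey where not, with a black bar at each median. The members' median lies at -0.43 and those of the lists between -0.03 and 0.06.

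The genes whose 6 values were most like the average member lay on other chromosomes. Likeness was the mean absolute difference over the 6 arrays between a gene and the mean of the members, each centred on its own control mean, among 9960 expressed genes that are not members. The closest were Wdr18 of chromosome 10 at 0.0136 log2 units, Igfbp7 of chromosome 5 at 0.0215, Mpp1 of chromosome X at 0.022, Gps2 of chromosome 11 at 0.0237 and Copg1 of chromosome 6 at 0.0251. Their shifts were -0.55 to -0.49. Of the 100 closest genes 19 were on chromosome 3, which held 4.65% of the genes ranked. The members were chosen for their fall, and expressed chromosome 3 genes already had a median shift of -0.23. A surplus of chromosome 3 genes was therefore built in, and nothing is read from it. The average member stood at -0.51, -0.48 and -0.55 on HA-Fbxl10 replicates 1, 2 and 3, against 0.06, -0.03 and -0.03 on control replicates 1, 2 and 3, so no single array carried the difference.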

How the data were processed

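Log2 expression values of 35556 probe sets on 6 arrays were deposited by the authors, made with RMA per the submitters' processing notes, with no version stated there. Because RMA equalises the arrays by quantiles, it hides any shift shared by most genes, and it compresses low values. The values ran from 1.72 to 13.9. The number of arrays limits precision, and no detection calls or batches were given.

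The 21789 probe sets with 1 gene were named through the platform annotation and the RefSeq table of GRCm38.p6, used for names, chromosomes and gene order only (21698 by Entrez identifier, 3 by accession, 88 kept). A further 1621 probe sets with several genes and 12146 unnamed ones were left out. The brightest probe set per gene was used, which left 19936 genes. Columns of other series numbered 0.

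The test was limma's moderated one (version 3.58.1, run in R 4.3.3), two-sided, with p-values adjusted by Benjamini-Hochberg across all genes and a threshold of 0.05. Shifts are HA-Fbxl10 minus control. Tested on simulated arrays of the HA-Fbxl10 and control comparison (19936 genes, 200 of them changed), it recovered 80% of shifts of 0.5 and 98% of shifts of 1, with 2 false calls among 180. The simulated noise was independent between genes, and the changed genes all lay above the median level. In the data 21.1% of genes were called, so these rates need not hold there. Figures used matplotlib 3.10.9.

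The members and all lists were chosen with earlier results of these data known. The naming rule took every member, all other S100 genes, the 4 largest calls of each other list, the 5 genes most like the members, and expressed genes lying between members. Named outside it, after their values were seen, were neighbours of the cluster (Chtop, Snapin, Ilf2, Psmb4, Psmd4, Tuft1) and further list genes (Anxa1, Mdm2, Capzb, Sugt1, Dlc1, Rcn2). Cell type markers were named where they passed the test. Alternatives were quantile normalisation again, array medians subtracted, averaged probe sets, removal of the dimmest 30% of genes, variance trends, array weights, a replicate block, removal of chromosome or running medians, other windows, an adjusted p of 0.01 and leaving out each array.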

Additional observations from a re-analysis of the deposited data

How the results depend on the processing

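The median shift of the members (-0.43) stayed negative under every setting run for it, from -0.50 to -0.38 without single arrays. It was -0.20 with chromosome medians removed, by construction of that step. With the running median removed it was -0.17, the value of S100a1, which neither step adjusted. The SD of the shifts, which a shift common to the members cannot change, ran from 0.32 to 0.39. Members whose HA-Fbxl10 arrays all lay below the control arrays numbered 8 to 9 without single arrays. Leaving out an array can only keep or raise that count, so this range says nothing about its stability. The count was 7 after quantile normalisation again, 6 with chromosome medians removed and 5 with array medians subtracted or the running median removed. With both removals S100a1 was left unadjusted and stayed in the count. With the running median removed the shifts of S100a7a (0.12), S100a10 (0.0709) and S100a11 (0.22) turned positive, and with chromosome medians removed those of S100a7a (0.000723) and S100a11 (0.11). Against neighbouring genes the median was -0.23 to -0.07 without single arrays, -0.07 with 10 and -0.11 with 50 genes on each side, and -0.06 after quantile normalisation again. Annexins lower (2) numbered 1 to 3 over the other settings: 1 to 2 without single arrays, 3 after quantile normalisation again, with the running median removed or with either variance trend, and 1 at an adjusted p of 0.01, with array medians subtracted or with the replicate block, while 2 were higher with chromosome medians removed. Partners lower (4) numbered 1 to 5 over the other settings: 5 with probe sets averaged or either variance trend, 2 to 4 without single arrays, 1 with the running median removed, and 2 at an adjusted p of 0.01, with array medians subtracted, with chromosome medians removed or with the replicate block. Partners higher (4) numbered 2 to 6: 6 with array medians subtracted, the dimmest genes left out or either variance trend, 2 to 3 without single arrays and 2 at 0.01, with chromosome medians removed or with the block. EF-hand genes higher numbered 4 to 6 without single arrays, 3 at 0.01, 9 with array medians subtracted and 10 with either variance trend, and 2 were lower at 0.01. Dlc1 was at -0.0396 with probe sets averaged and Rcn2 at -0.017 with the running median removed. The cause of these changes was not tested unless stated. Replicate numbers are shared by both groups, but same-numbered samples did not deviate together (correlations over genes of 0.085, -0.283 and -0.093). As a block the number left the members' shifts as they were, with a median of -0.43 and standard errors of 0.0687 to 0.105, and gave 3397 calls over all genes in place of 4208.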
